A study of Rattus norvegicus with 7 samples.

Results

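The mRNA of 67 genes of vesicle traffic and secretion was examined in alveolar type 2 cells, the surfactant-secreting epithelial cells of the lung alveolus, from rats fed ethanol and from rats on a control diet. The genes were those whose symbol is Rab followed by a digit or Syt followed by a digit, or starts with Vamp, Stx, Snap2 or Anxa, and that had a probe set annotated to that gene alone. They made up 67 of the 4736 genes with such a probe set and had 97 of the 8740 probe sets tested. A gene measured more than once is represented by its brightest probe set, judged by the mean of the 7 arrays. The 67 genes comprised 28 Rab GTPases, 15 SNARE genes, 13 synaptotagmins and 7 annexins, and 4 genes that share a symbol but encode partners: the Rab effector Rab11fip5, the Rab exchange factor Rab3ip, and the syntaxin-binding proteins Stxbp2 and Stxbp5.

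The control group was 4 male Sprague Dawley rats on an isocaloric liquid diet without EtOH, and the ethanol group was 3 male Sprague Dawley rats on the Lieber-DeCarlie diet with EtOH at 36% of calories, both for 6 weeks. The sources used here do not give the age of the animals. Type 2 cells were isolated by an immuno-absorption technique, their RNA was taken up in Trizol, and biotin-labelled RNA was read on an Affymetrix expression array, 1 array for each animal. The number that opens the sample title is lower for every control array than for every ethanol array. Diet and any effect that follows this numbering therefore cannot be told apart. The replicate numbers of the ethanol arrays begin at 2, and the samples used here hold no ethanol 1. The surfactant protein genes Sftpc, Sftpb and Sftpa1, listed here as type 2 cell markers, were read at 12.76 to 12.85, 11.31 to 11.46 and 10.27 to 11.07 on the control arrays. On the ethanol arrays they were read at 12.41 to 12.78, 11.24 to 11.71 and 10.55 to 11.06. All values are log2 expression values as deposited, and a difference is the ethanol mean minus the control mean on that scale. The number of arrays limits the precision.

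Secretory cells move membrane in small carriers, and each protein family examined here acts at a step of that movement. Rab GTPases mark membranes and recruit the motors and tethers that bring a carrier to its target, and SNARE proteins (VAMPs on the carrier, syntaxins and SNAP proteins on the target) zip together to fuse both membranes. Synaptotagmins are membrane-anchored calcium sensors of fusion, and annexins bind acidic phospholipids when calcium is present. In the type 2 cell the main regulated cargo is the lamellar body, the storage organelle of surfactant, whose fusion with the cell surface releases surfactant into the alveolus.

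Of the 67 genes, 0 passed the test of the diet difference at an adjusted p under 0.05 (limma with Benjamini-Hochberg adjustment over all 8740 probe sets, lowest adjusted p = 0.967), where 0.149% of all probe sets passed. At an unadjusted p under 0.05 there were 5 members, 7.46% of them, against 4.58% of all probe sets and 4.37% of all genes with 1 probe set each. The 5 were Rab11b, Rab8b, Anxa2 and Anxa3, all read lower with ethanol as were 2.45% of all probe sets at that level, and Snap25, read higher as were 2.13%. The values of the groups did not overlap in 2 members, Rab8b and Snap25, which is 2.99% of the members where 5.24% of all probe sets and 4.92% of all genes did so. The median difference was -0.014 over the members, -0.0051 over all probe sets and -0.014 over all genes, with 29 members above 0 and 38 below. In bulk RNA of this kind, fewer cells of a type and less RNA per cell cannot be told apart.

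The intervals give the size of what could have been missed in the values of the probe sets. The standard error of a member's difference was 0.11 to 0.31, with a median of 0.14. In 66 of the 67 members the 95% confidence interval, not adjusted for the number of genes, lay inside a 2-fold difference in either direction, and Rab11b was the exception. In 53 members it lay inside a 1.5-fold difference. However, 14 of the 67 members had a mean level below 3.827, among the dimmest 0.25 of all probe sets. No detection call was used, so a narrow interval need not bound a change in the transcript, in these dim members or in the others. The difference was larger than its own standard error in 19 members (28.4%, against 35.2% of all probe sets), and the others are given below as values without a direction.

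**Figure D1:**
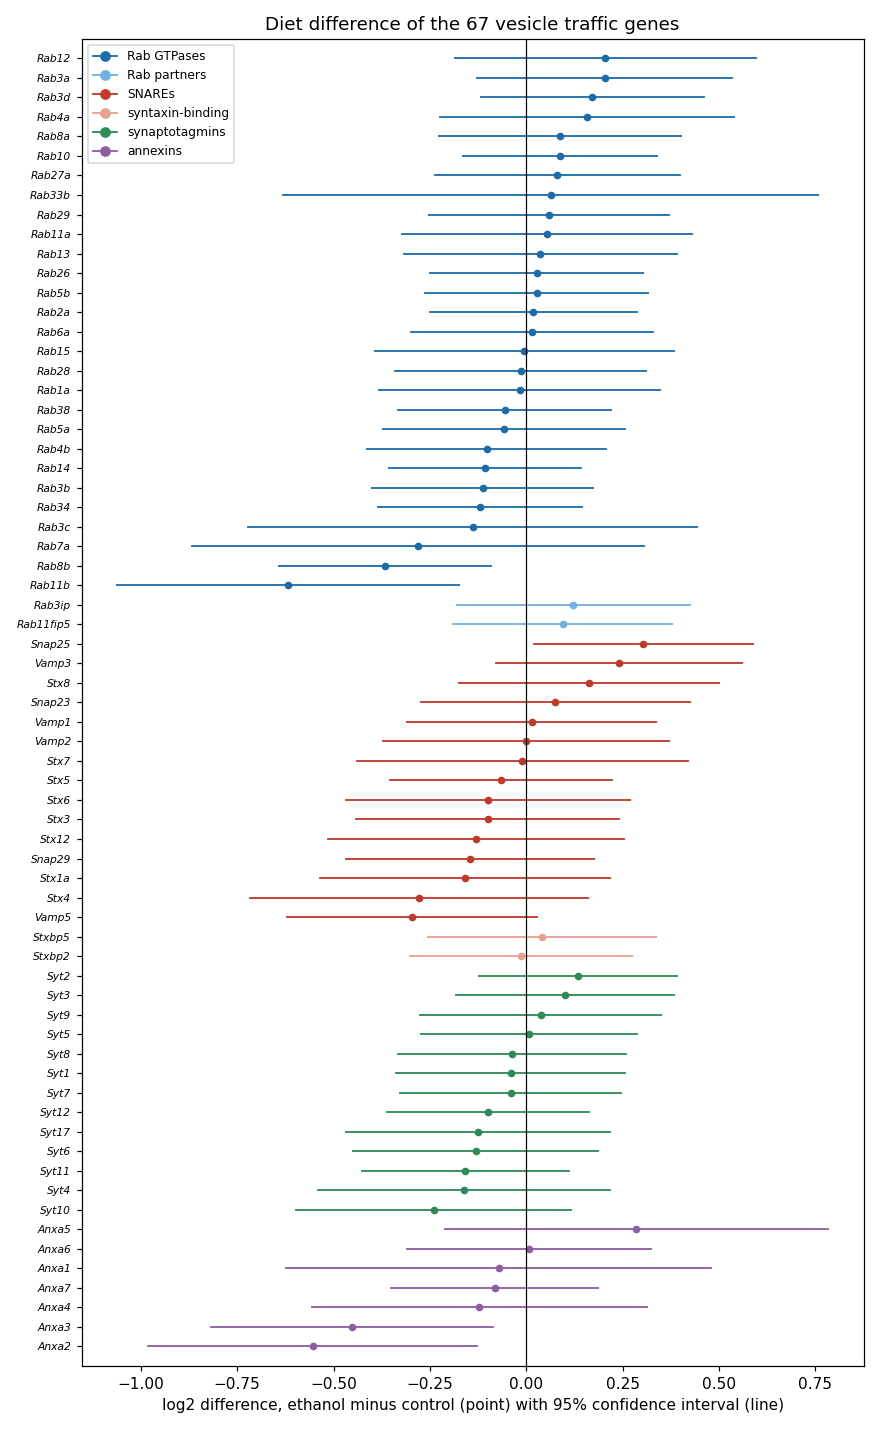
The log2 difference between ethanol and control arrays (horizontal axis) is plotted for each of the 67 genes (vertical axis) with its 95% confidence interval, coloured by family. The intervals of Rab11b, Rab8b, Anxa2, Anxa3 and Snap25 leave out 0, and that of Rab11b alone reaches past a difference of -1.

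The promoters of the 4 members read lower at an unadjusted p under 0.05 are shown, although none of these genes passed after adjustment. Each is the 250 bases before the start of the gene in RefSeq on the GRCr8 assembly, 5′ to 3′ on the gene's own strand, with matches to 4 common promoter elements in capitals: the GC box (GGGCGG), the TATA box (TATAAA), the AP-1 site (TGANTCA) and the CCAAT box (CCAAT), each on either strand. They lie at chr7:15236755-15237004 (Rab11b, minus strand), chr8:76417549-76417798 (Rab8b, minus strand), chr8:78986002-78986251 (Anxa2, plus strand) and chr14:13085598-13085847 (Anxa3, minus strand).
Rab11b: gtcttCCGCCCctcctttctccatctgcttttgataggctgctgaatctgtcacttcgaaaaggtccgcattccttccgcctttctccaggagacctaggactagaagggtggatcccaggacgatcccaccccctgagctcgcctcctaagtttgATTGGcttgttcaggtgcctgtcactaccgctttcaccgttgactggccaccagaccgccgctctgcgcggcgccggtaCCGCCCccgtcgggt
Rab8b: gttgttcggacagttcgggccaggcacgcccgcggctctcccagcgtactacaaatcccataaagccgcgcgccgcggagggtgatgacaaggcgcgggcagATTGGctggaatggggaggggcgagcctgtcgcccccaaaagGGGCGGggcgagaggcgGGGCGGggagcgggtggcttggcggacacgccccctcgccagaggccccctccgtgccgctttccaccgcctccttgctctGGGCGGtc
Anxa2: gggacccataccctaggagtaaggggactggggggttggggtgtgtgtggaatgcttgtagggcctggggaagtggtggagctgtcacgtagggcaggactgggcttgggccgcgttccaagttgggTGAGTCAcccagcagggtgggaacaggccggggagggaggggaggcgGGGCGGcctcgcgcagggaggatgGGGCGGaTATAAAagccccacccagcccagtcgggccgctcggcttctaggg
Anxa3: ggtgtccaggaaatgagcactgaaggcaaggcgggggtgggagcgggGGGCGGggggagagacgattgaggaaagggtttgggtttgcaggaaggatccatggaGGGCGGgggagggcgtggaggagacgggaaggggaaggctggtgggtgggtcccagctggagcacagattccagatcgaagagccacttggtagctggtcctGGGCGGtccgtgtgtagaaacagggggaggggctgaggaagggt

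The 4 promoters were compared by the elements they hold, and a link between these elements and the diet differences was not tested. All 4 hold at least 2 GC boxes, the binding element of SP1-type factors, and Rab11b and Rab8b hold 1 CCAAT box each. Anxa2 is the only one of the 4 with a TATA box, which sets the start of transcription, and with an AP-1 site, the element bound by FOS and JUN proteins. RefSeq promoters were matched for 56 of the 67 members. A GC box was found in 41 of these 56 (73.2%), against 53.0% of 3871 promoters of genes on the array and 32.4% of all 27457 in the table. A TATA box was found in 2 (3.57%), those of Anxa1 and Anxa2, against 10.9% and 13.1%. The AP-1 site was in 3 (5.36% against 5.19% and 6.36%) and the CCAAT box in 22 (39.3% against 35.8% and 34.3%). The promoters of the members also had a higher share of G and C, with a median of 62.6% against 59.2% and 52.0%, and a base composition rich in G and C holds more chance matches to the GC box. A match is a run of letters and does not show that a factor binds there.

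Among the Rab GTPases, 2 of 28 were at an unadjusted p under 0.05 (7.14%, against 4.58% of all probe sets) and 0 passed after adjustment. Their median difference was 0.017, with 15 above 0 and 13 below. Rab11b, a GTPase of the recycling endosome, lay at 7.46, 7.68, 7.53 and 7.30 in controls 1 to 4 and at 6.68, 7.38 and 6.57 in ethanol 2, 3 and 4. Ethanol 2 and 4 were low, while ethanol 3 lay inside the control range, so the groups overlapped. The difference was -0.62, a 1.53-fold lower mean (SE 0.197, 95% confidence interval -1.06 to -0.17, limma adjusted p = 0.967), and it was -0.47 without ethanol 4 (unadjusted p = 0.0561). Its other probe sets did not share this: rc_AA891669_g_at stood at -0.17 and D01046_at at 0.16, and all 3 averaged gave -0.21.

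Rab8b, which carries vesicles to the cell surface, lay at 4.36, 4.44, 4.62 and 4.38 in the controls and at 4.23, 3.99 and 4.04 with ethanol. All 3 ethanol arrays were below all 4 controls. The difference was -0.37 (SE 0.122, limma adjusted p = 0.967), and it ran from -0.44 to -0.31 with each array left out in turn. Without ethanol 3, Rab8b was not at an unadjusted p under 0.05. Rab8a, the close relative with the same route, was at 0.087 ± 0.139 (SE).

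The Rab3 and Rab27 proteins sit on secretory granules and dock them at the cell surface. Rab3d, known from exocrine and lung secretory cells, lay at 4.99, 4.72, 4.73 and 4.91 in the controls and at 4.97, 5.19 and 4.88 with ethanol, overlapping, for a difference of 0.17 (SE 0.129). Rab3a, the synaptic vesicle form, lay at 4.78, 4.47, 4.65 and 4.52 in the controls and at 4.57, 4.79 and 5.07 with ethanol, a difference of 0.20 (SE 0.147). In both genes the highest ethanol array was above every control and the lowest was not. Rab27a, which tethers granules at the membrane, lay at 3.84, 3.80, 4.14 and 4.25 and at 4.03, 4.12 and 4.11, with a difference of 0.080 (SE 0.141). Rab3b lay at 5.68, 5.78, 5.58 and 5.47 in the controls and at 5.65, 5.53 and 5.36 with ethanol, a value of -0.11 (SE 0.128). Rab3c, a neuronal form, spread over 1.27 log2 units on the 7 arrays, from 3.65 in control 4 to 4.91 in control 2, with the ethanol arrays at 3.88 to 4.29 between them. Rab26, another granule GTPase, stood at 0.027.

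Rab38 is required for normal lamellar bodies, which are abnormal in rats that lack it. It lay at 4.30, 4.58, 4.43 and 4.31 in the controls and at 4.31, 4.27 and 4.47 with ethanol. The groups overlapped, and the difference was -0.056 (SE 0.122, 95% confidence interval -0.33 to 0.22). Its second probe set gave -0.039.

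Endosomal Rabs direct uptake, recycling and degradation. Rab5a, of the early endosome, lay at 3.96, 3.82, 4.26 and 4.18 in the controls and at 3.88, 4.09 and 4.02 with ethanol, a difference of -0.058 (SE 0.140). Rab7a, of the late endosome and lysosome, had the widest range of the 67 genes over the 7 arrays, though Rab33b and Rab11b had a larger SD, and lay at 5.92, 5.15, 5.93 and 6.45 in the controls and 5.37, 5.69 and 5.68 with ethanol. Controls 2 and 4 were its lowest and highest arrays, and the ethanol arrays lay between them. Its difference of -0.28 (SE 0.261) became -0.52 without control 2 (unadjusted p = 0.0146, limma adjusted p = 0.909) and -0.085 without control 4. Rab11a, the recycling relative of Rab11b, lay at 4.73, 4.95, 4.58 and 5.17 and at 4.75, 4.85 and 5.14, a difference of 0.054, with its other 2 probe sets at 0.29 and 0.35. Rab4a, of fast recycling, stood at 0.16 and Rab4b at -0.10, Rab5b at 0.027 and Rab15 at -0.0053. Rab12, which directs cargo from recycling endosomes to lysosomes, had a difference of 0.20 (SE 0.174), from 5.0, 4.62, 4.99 and 5.39 in the controls and 5.12, 5.17 and 5.33 with ethanol.

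The remaining Rabs act mostly in the endoplasmic reticulum, the Golgi and the routes out of them. Rab14, between Golgi and endosomes, had the narrowest range of the 67 genes over the 7 arrays, 0.26 log2 units, though Rab10 had a smaller SD, and lay at 3.69, 3.67, 3.81 and 3.79 in the controls and 3.54, 3.73 and 3.63 with ethanol, a difference of -0.11 (SE 0.111). Rab6a, of the Golgi, lay at 4.13, 3.73, 4.18 and 4.14 and at 4.05, 3.98 and 4.16, where control 2 stood below every other array. Rab1a, Rab2a, Rab6a, Rab10, Rab13, Rab28, Rab29 and Rab33b had differences between -0.017 and 0.087, all within their own standard errors. Rab34 was at -0.12 (SE 0.118), with the ethanol arrays at 5.75 to 5.86 and the controls at 5.83 to 6.11. The partners Rab11fip5, which binds Rab11, and Rab3ip, which activates Rab8, were at 0.094 and 0.12.

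**Figure D2:**
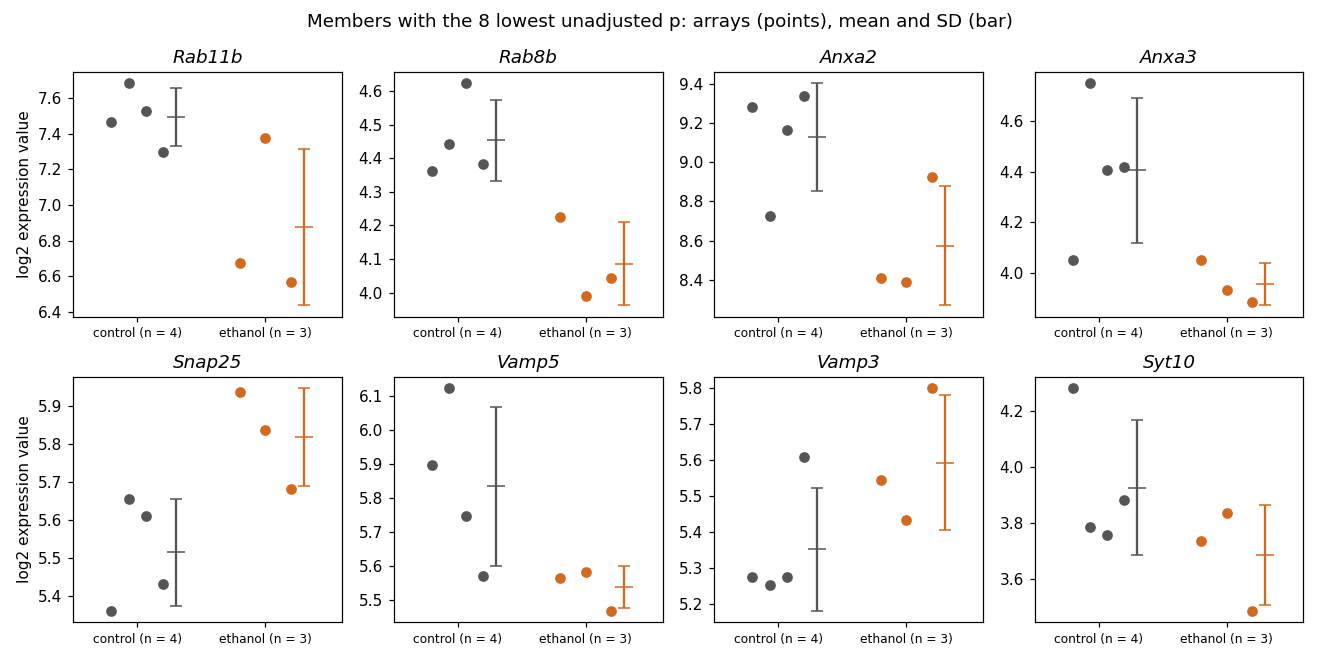
The log2 value of each control array (grey points, n = 4) and each ethanol array (orange points, n = 3) is plotted for the 8 members with the lowest unadjusted p, with the group mean and SD beside the points; each panel has its own axis range. The points of the groups are apart in Rab8b and Snap25, overlap in the other 6.

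Of the 15 SNARE genes, 1 was at an unadjusted p under 0.05 (6.67%, against 4.58% of all probe sets) and 0 passed after adjustment. The family's median difference was -0.067, with 5 above 0 and 10 below. Snap25, the plasma membrane SNARE of neurons and endocrine cells, lay at 5.36, 5.65, 5.61 and 5.43 in the controls and at 5.94, 5.84 and 5.68 with ethanol. All ethanol arrays were above all controls. The difference was 0.30, a 1.23-fold higher mean (SE 0.127, 95% confidence interval 0.019 to 0.59, limma adjusted p = 0.967). Its other 3 probe sets were at 0.21, 0.12 and -0.27, and the groups were also apart in the first of these, AB003991_g_at. Snap23, the form found in most tissues, lay at 4.00, 3.67, 4.15 and 4.14 in the controls and at 3.86, 4.24 and 4.10 with ethanol, a difference of 0.075 (SE 0.155). Snap29, of endosomes and autophagosomes, lay at 4.65, 4.58, 4.58 and 4.16 and at 4.44, 4.27 and 4.33, and its difference was -0.15 (SE 0.143), -0.26 without control 4, the low control, and -0.093 without control 1.

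The VAMPs are the SNAREs on the carrier. Vamp2, the main VAMP of regulated exocytosis, lay at 6.80, 6.45, 6.69 and 6.91 in the controls and at 6.47, 6.66 and 7.01 with ethanol. The group means were equal at 6.71, and the difference was -0.00057 (SE 0.165, 95% confidence interval -0.37 to 0.37); the second probe set gave -2.9e-05. Vamp3, of recycling endosomes, lay at 5.27, 5.25, 5.27 and 5.61 in the controls and at 5.54, 5.43 and 5.80 with ethanol. Control 4 was the only control inside the ethanol range, and the difference was 0.24 (SE 0.142), 0.33 without control 4 (unadjusted p = 0.0441, limma adjusted p = 0.551) and 0.14 without ethanol 4 (unadjusted p = 0.394). Vamp5, first described in muscle, lay at 5.90, 6.12, 5.75 and 5.57 in the controls and at 5.56, 5.58 and 5.47 with ethanol, a difference of -0.30 (SE 0.145, limma adjusted p = 0.967) that ran from -0.39 without control 4 (unadjusted p = 0.0232) to -0.20 without control 2. Its other probe set, AF054826_at, went the opposite way at 0.40 (SE 0.179, unadjusted p = 0.0492), and the mean of both gave 0.053. Vamp1 stood at 0.014.

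Syntaxins are the SNAREs of the target membrane. Stx4, of the plasma membrane, lay at 3.32, 3.63, 3.12 and 3.16 in the controls and at 2.68, 2.99 and 3.43 with ethanol, a difference of -0.28 (SE 0.195). It was -0.48 without ethanol 4 (unadjusted p = 0.0314, limma adjusted p = 0.983), -0.17 without control 2 and -0.10 without ethanol 2. Stx3, of the apical membrane of epithelia, lay at 4.36, 3.79, 4.02 and 4.20 and at 4.08, 3.87 and 4.03, all ethanol arrays within the control range, a difference of -0.10 (SE 0.152). Stx1a, of neurons, lay at 5.53, 6.07, 5.59 and 5.50 and at 5.61, 5.63 and 5.30, and its -0.16 (SE 0.168) was -0.026 without control 2 and -0.054 without ethanol 4. Stx12, of endosomes, lay at 5.74, 6.09, 5.69 and 5.69 and at 5.35, 5.97 and 5.69. Control 2 was the highest array in both Stx1a and Stx12. Stx8, of late endosomes, lay at 4.49, 4.25, 4.61 and 4.76 and at 4.72, 4.50 and 4.84, a difference of 0.16 (SE 0.150). Stx5, Stx6 and Stx7, of the Golgi, trans-Golgi and late endosome, were at -0.067, -0.099 and -0.010. The syntaxin-binding proteins Stxbp2 (Munc18-2) and Stxbp5 (tomosyn) were at -0.013 and 0.042.

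Synaptotagmin genes gave 0 of 13 at an unadjusted p under 0.05, with a median difference of -0.041, 4 above 0 and 9 below. Syt7, the high-affinity calcium sensor of lysosome and granule exocytosis, lay at 4.41, 4.08, 4.31 and 4.26 in the controls and at 4.23, 4.36 and 4.08 with ethanol. Both groups covered the same range, and the difference was -0.041 (SE 0.128, 95% confidence interval -0.33 to 0.25). Syt1, the fast sensor of synapses, lay at 2.99, 2.71, 2.98 and 2.84 and at 2.82, 3.02 and 2.67, a difference of -0.040. Syt10 lay at 4.28, 3.78, 3.76 and 3.88 in the controls and at 3.74, 3.83 and 3.49 with ethanol, where control 1 was high, a difference of -0.24 (SE 0.159). Syt11, which lacks calcium binding, lay at 4.88, 4.82, 5.05 and 4.76 and at 4.67, 4.67 and 4.82, a difference of -0.16 (SE 0.120). Syt2 lay at 3.06, 3.24, 3.21 and 3.35 and at 3.33, 3.38 and 3.34, a difference of 0.13 (SE 0.114). Syt3 lay at 5.29, 5.26, 5.55 and 5.28 and at 5.58, 5.34 and 5.42, with control 3 apart from the other controls and a value of 0.10. Syt4, Syt5, Syt6, Syt8, Syt9, Syt12 and Syt17 were between -0.16 and 0.037.

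The annexins had the widest spread between arrays of the families, with a median range of 0.87 log2 units against 0.51 over all members and 0.55 over all probe sets. At an unadjusted p under 0.05 there were 2 of 7 (28.6%, against 4.58% of all probe sets), and 0 passed after adjustment. The median difference was -0.082, with 2 above 0 and 5 below. Anxa2, which links membranes to actin and takes part in lamellar body fusion, lay at 9.28, 8.73, 9.16 and 9.34 in the controls and at 8.41, 8.39 and 8.93 with ethanol. Ethanol 2 and 3 were below every control, and ethanol 4 was above control 2. The difference was -0.55, a 1.47-fold lower mean (SE 0.190, 95% confidence interval -0.98 to -0.13, limma adjusted p = 0.967), and it ran from -0.73 to -0.46 with each array left out. Without ethanol 2, and also without ethanol 3, Anxa2 was not at an unadjusted p under 0.05. Anxa2 had a single probe set here. S100a10, whose protein binds annexin A2 as a stable complex and which was picked for that after its values were seen, was at -0.12 (SE 0.274), from 4.75, 4.06, 4.67 and 5.29 in the controls and 4.32, 4.40 and 5.0 with ethanol.

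Anxa3 lay at 4.05, 4.75, 4.41 and 4.42 in the controls and at 4.05, 3.93 and 3.89 with ethanol. Control 1 and ethanol 2 were level at 4.05, and the other 3 controls were above every ethanol array. The difference was -0.45 (SE 0.163, 95% confidence interval -0.82 to -0.085, limma adjusted p = 0.967), and the second probe set gave -0.15 (SE 0.160). Anxa5, a placental and vascular anticoagulant annexin also present in many other cells, lay at 6.95, 6.37, 6.86 and 7.46 in the controls and at 7.18, 7.10 and 7.32 with ethanol, a difference of 0.29 (SE 0.221). Its second probe set, AF051895_at, read 6.51, 6.12, 6.34 and 6.51 in the controls and 6.82, 6.57 and 6.64 with ethanol, with the groups apart and a difference of 0.30 (SE 0.138). The difference of the chosen probe set of Anxa5 was 0.47 without control 4 (unadjusted p = 0.024, limma adjusted p = 0.528) and 0.11 without control 2 (unadjusted p = 0.552).

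Anxa1, the glucocorticoid-regulated annexin, lay at 7.05, 6.42, 7.02 and 7.65 in the controls and at 6.88, 6.87 and 7.14 with ethanol. Controls 2 and 4 were its lowest and highest arrays, and the difference was -0.072 (SE 0.245), -0.28 without control 2 and 0.13 without control 4. Anxa7, known as synexin and linked to lamellar body fusion, lay at 4.47, 4.74, 4.68 and 4.47 and at 4.57, 4.49 and 4.47, a difference of -0.082 (SE 0.120, 95% confidence interval -0.35 to 0.19). Anxa4 and Anxa6 were at -0.12 and 0.0078.

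**Figure D3:**
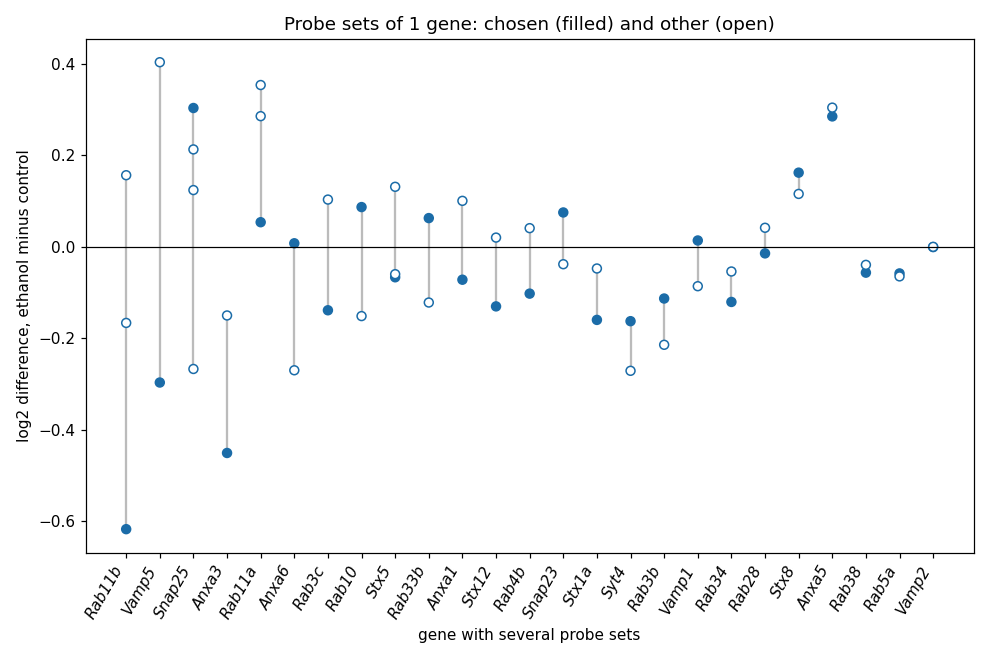
The log2 difference of each probe set (vertical axis) is plotted for the 25 member genes with several probe sets, ordered by the distance between their probe sets; the filled point is the probe set with the highest mean. In Rab11b, Vamp5 and Snap25 the probe sets of 1 gene lie on both sides of 0 and furthest apart.

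Several probe sets were present for 25 of the 67 genes, and they had 1 sign in 11 genes and both signs in 14. The distance between the probe sets of 1 gene was 0.77 in Rab11b, 0.70 in Vamp5 and 0.57 in Snap25, so 2 of the 5 members at an unadjusted p under 0.05 were among the 3 genes whose probe sets disagreed most. When all probe sets of each gene were averaged, 3 of the 67 genes were at an unadjusted p under 0.05, namely Anxa2, Anxa3 and Rab8b, which is 4.48% of the members where 4.37% of all averaged features were. Members of these families are similar in sequence, and cross-reading between relatives by a probe set was not tested.

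Control 2, control 4 and ethanol 4 were often the extreme arrays. Control 2 gave the lowest or highest value in 43 of 67 members (64.2%) against 48.1% of all probe sets, and it was the lowest array in 26 members (38.8% against 22.1%). Control 4 was the highest array in 16 members (23.9% against 11%), among them Anxa1, Anxa2, Anxa4, Anxa5, Rab7a and Stx7. Ethanol 4 gave the lowest or highest value in 24 members (35.8% against 31.5%) and was the lowest array in 15 (22.4% against 18%). Averaged over the 7 annexins, control 4 stood 0.32 above and control 2 stood at -0.15 from the genes' own means, and ethanol 2, 3 and 4 at -0.15, -0.15 and 0.051. Averaged over the 28 Rab GTPases, no array was further than 0.059 from 0. Averaged over the synaptotagmins, ethanol 4 stood furthest from 0, at -0.15. Without control 4 the groups were apart in 12 members, where 15.3% of all probe sets were apart, and 7 members were at an unadjusted p under 0.05, where 9.03% of all probe sets were. Without ethanol 3 the counts were 8 (10.1% of all probe sets) and 1, Rab11b (2.99%), and without ethanol 2 they were 5 (12.7%) and 3 (4.06%). They were 7 (13%) and 4 (4.27%) without ethanol 4, and 4 (9.6%) and 6 (4.71%) without control 2. Without control 1 they were 3 (7.72%) and 4 (3.38%), and without control 3 they were 3 (7.21%) and 5 (2.64%).

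**Figure D4:**
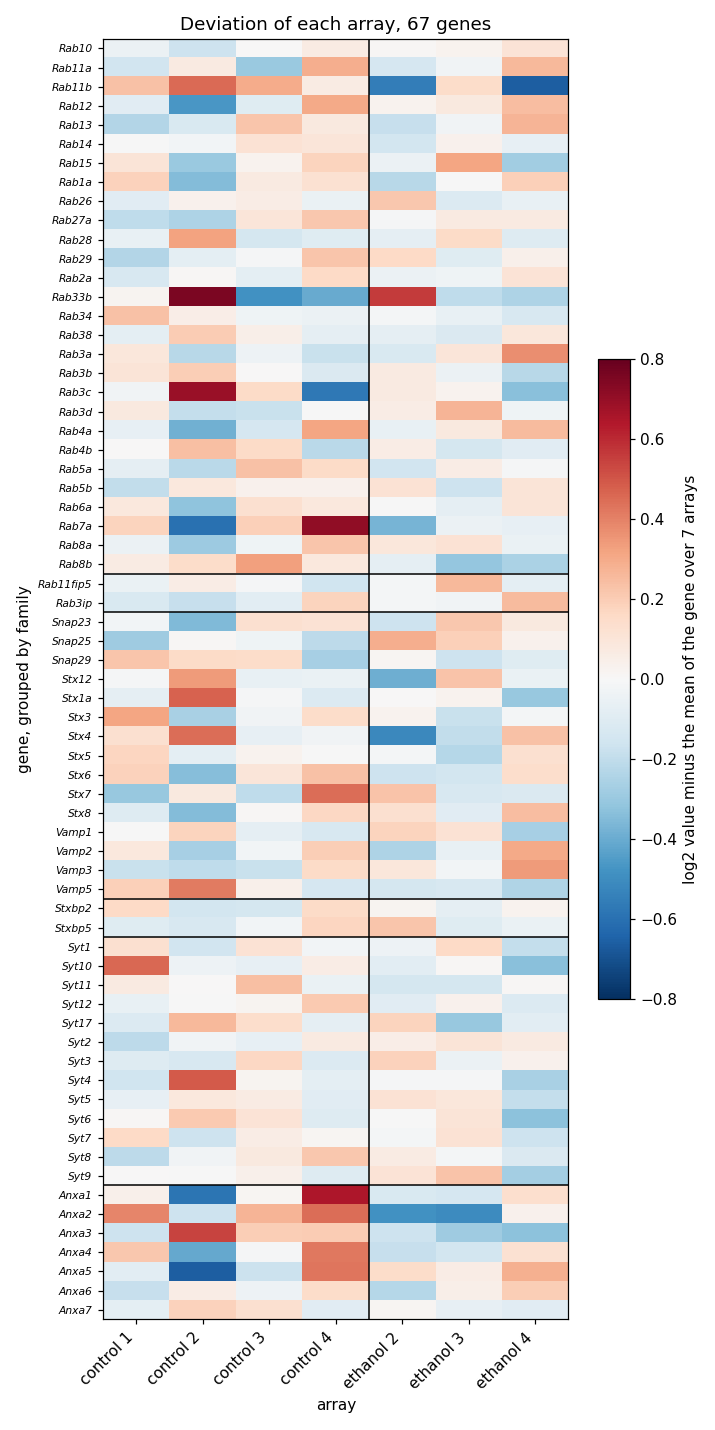
Each cell is the log2 value of 1 gene (rows, grouped by family) on 1 array (columns) minus that gene's mean over the 7 arrays, red above and blue below. Controls 2 and 4 deviate in opposite directions in Rab7a, Rab3c, Rab33b, Anxa1 and Anxa5, and Rab11b is lowest in ethanol 2 and 4.

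**Figure D5:**
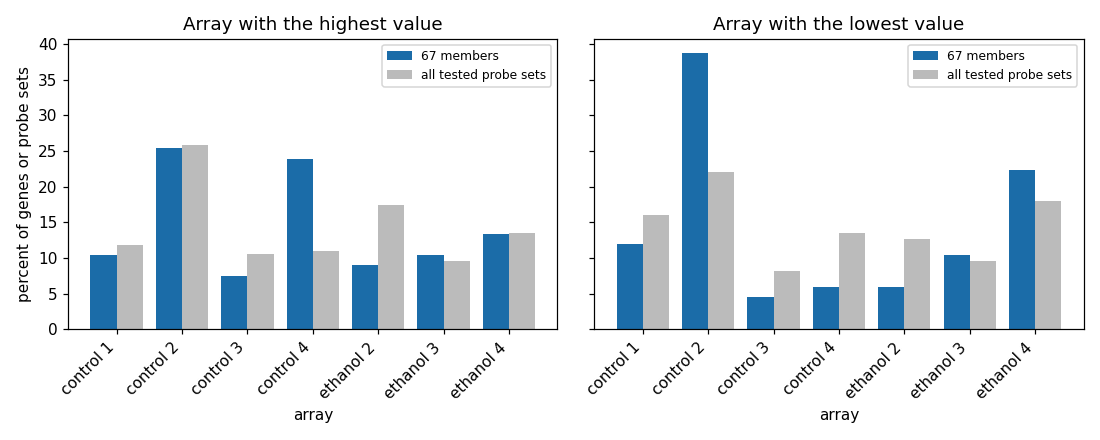
Bars give the percent of the 67 members (blue) and of all tested probe sets (grey) whose highest (left) or lowest (right) value was on each array. Control 2 holds the lowest value of 38.8% of the members and control 4 the highest value of 23.9%.

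Other genes of the same machinery were counted from lists drawn up with earlier results of these data known, leaving out the 67 members. Of 22 measured SNARE regulators, such as the SM proteins, NSF with its adaptors, and further SNAREs, 11 were above 0 and 11 below, with a median of -0.019. In this list 0 passed after adjustment and 3 were at an unadjusted p under 0.05, all lower (13.6%, against 4.58% of all probe sets). The groups were apart in 3 of its genes (13.6%, against 5.24%). Doc2b, a soluble calcium sensor with C2 domains like those of synaptotagmins, lay at 5.43, 5.33, 5.41 and 4.96 in the controls and at 4.84, 4.83 and 4.77 with ethanol, all 3 below all 4, a difference of -0.47 (SE 0.140, limma adjusted p = 0.967). Its relative Doc2a lay at 4.07, 4.20, 4.21 and 3.95 and at 3.87, 3.76 and 3.60, again apart, a difference of -0.36 (SE 0.125). Ykt6, a SNARE of the Golgi and of autophagosomes, lay at 4.24, 4.63, 4.36 and 4.27 and at 3.94, 3.99 and 4.09, a difference of -0.37 (SE 0.130). These 3 were the list's genes with the lowest p and were chosen for that.

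Rab regulators gave 0 of 12 at an unadjusted p under 0.05 and a median of -0.041. Rabac1, which removes Rabs from their inhibitor, had the lowest p, at 7.40, 6.93, 7.26 and 7.50 in the controls and 7.30, 7.74 and 7.85 with ethanol, a difference of 0.36 (SE 0.181). Of 32 secretory vesicle, exocyst and coat genes, 11 were above 0 and 21 below (median -0.055). In this list 1 gene was at an unadjusted p under 0.05 (3.12%, against 4.58% of all probe sets). It was Cav1, the caveolin of surface invaginations and also a marker of type 1 cells, at 0.58 (SE 0.213). The 4 measured type 1 cell markers, Cav1 among them, ran from -0.47 to 0.58, with 1 higher and 1 lower at that level. Annexin partners gave 0 of 11 and a median of 0.073. Of 11 surfactant and lamellar body genes, 6 were above 0 and 5 below (median 0.036), with 1 at an unadjusted p under 0.05 (9.09%, against 4.58%). This was P2ry2, the purinergic receptor through which ATP triggers surfactant release, at 5.72, 5.27, 5.41 and 5.41 in the controls and 4.91, 4.87 and 5.16 with ethanol. All ethanol arrays were below all controls, with a difference of -0.47 (SE 0.143, limma adjusted p = 0.967). In these 4 lists, 0 genes passed after adjustment.

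Markers of other cells in a lung isolate were read beside these values, since annexins, Rab8b and Cav1 are not particular to type 2 cells. Of 10 mesenchymal markers 8 were below 0 and 5 were lower at an unadjusted p under 0.05 (50%, against 2.45% of all probe sets). Their mean level ran from 5.38 to 5.82 in the controls, lowest in control 4, and from 5.31 to 5.45 with ethanol. Of 11 T and natural killer cell markers 9 were below 0, at 4.45 to 4.60 and 4.32 to 4.44, and 1 was lower at that p (9.09%). The groups were apart in 2 mesenchymal markers (20%) and in 2 T and natural killer cell markers (18.2%), against 5.24% of all probe sets. Of 4 type 1 cell markers 2 were at that p (50%, against 4.58%), 1 higher and 1 lower. The other marker lists had 0 genes at that p. Macrophage markers (7 measured) lay at 5.97 to 6.12 and at 6.05 on all ethanol arrays, neutrophil markers (4) at 3.61 to 3.83 and 3.68 to 3.78, endothelial markers (4) at 4.51 to 4.74 and 4.41 to 4.67, and neuroendocrine and neuronal markers (6) at 4.33 to 4.82 and 4.32 to 4.55. B and plasma cell markers (5) lay at 5.40 to 5.70 and 5.51 to 5.60, airway markers (5) at 5.55 to 6.02 and 5.69 to 5.86, type 1 cell markers (4) at 5.84 to 6.15 and 5.84 to 6.31, and red cell and platelet markers (5) at 5.71 to 5.82 and 5.38 to 6.17. Type 2 cell markers (7 measured) lay at 9.22 to 9.57 and 8.94 to 9.65. The array gives every probe set a value above 0 and no detection call was used, so absence of a cell type cannot be read from these levels. The part of these cells in the values of the members was not tested.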

How the data were processed

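RNA of isolated type 2 cells from 4 control and 3 ethanol-fed rats was hybridised to 1 Affymetrix array per animal. The deposited table holds log2 values for 8799 probe sets; the sources used here do not say how the authors summarised and normalized the probes. After 59 array control probe sets were left out, 8740 were tested. Values ran from 1.65 to 12.84 and array means from 4.758 to 4.760. Gene names came from the platform annotation, which gave 1 symbol to 7006 probe sets, several to 308 and none to 1426; 2 probe sets shared by Rab1a and Rab1b were left out. All 67 members matched a RefSeq gene of GRCr8 by Entrez number.

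The members and the gene lists were chosen with earlier results of these data known. Groups came from the labels. The difference was fitted to all probe sets with limma 3.58.1 in R 4.3.3 (lmFit and eBayes), with Benjamini-Hochberg adjustment over the 8740. The p-values are two-sided. They set the group difference against the spread between animals of the same group, moderated by a variance prior fitted over all probe sets. The fit was also tried on 10 sets of simulated data with 200 changed probe sets. There it found 79.2% of those changed 2-fold and 98.6% of those changed 4-fold, and 5.14% of its calls were false. Such rates depend on how many probe sets change, which is not known for the real arrays, where 13 passed. Whether the rates hold for these 7 arrays was not tested.

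Values by array are given for the 8 members with the lowest p in each direction, for members known from exocytosis, and for members with an outlying control, and a few others are described by what they showed. Outside the members, the rule names up to 3 genes with the lowest p in a pathway list and the first 3 type 2 cell markers measured; S100a10 falls outside it. The fit was repeated with array weights, a replicate block, other variance priors, median centring or quantile normalization, with dim probe sets left out, with all probe sets of a gene averaged, and without each array in turn. Same-numbered arrays deviated from their group means with correlations of 0.425, 0.0666 and 0.432 for numbers 2, 3 and 4. These values do not settle whether the numbers mark pairs. The labels name no pairs, so the fit reported used none, and counts from the replicate block are given below.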

Additional observations from a re-analysis of the deposited data

Results flagged for a closer look

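In 6 of the 67 members, 1 control array stood further from the other 3 than Dixon's 95% critical value for 4 samples allows. Chance flags about 1 in 20 groups. The same count over all probe sets was not made, so an excess in these genes cannot be read from it. Control 2 gave the lowest or highest value in 48.1% of all probe sets. Rab6a was low in control 2, at 3.73 against 4.13 to 4.18 in the other controls and 3.98 to 4.16 with ethanol. Stx1a was high in control 2, at 6.07 against 5.50 to 5.59 and 5.30 to 5.63. Stx12 was high in control 2 as well, at 6.09 against 5.69 to 5.74 and 5.35 to 5.97. Snap29 was low in control 4, at 4.16 against 4.58 to 4.65 and 4.27 to 4.44. Vamp3 was high in control 4, at 5.61 against 5.25 to 5.27 and 5.43 to 5.80. Syt3 was high in control 3, at 5.55 against 5.26 to 5.29 and 5.34 to 5.58.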

How the results depend on the processing

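Under 16 alternatives, 9 with all arrays and 7 with an array left out, 0 members passed at an adjusted p under 0.05. Their lowest limma adjusted p ran from 0.123 with quantile normalization to 0.998 without control 3. It was 0.127 with array weights, 0.211 without ethanol 3, 0.289 with the replicate block and 0.967 in the fit reported. Over all probe sets 13 passed, against 0 without variance moderation (367 at an unadjusted p under 0.05) and 23 with the replicate block. With an array left out 13 to 16 passed. The block changed no member's call after adjustment, and 4 members (5.97%) were at an unadjusted p under 0.05 with it, against 8.12% of all probe sets. That count was 5 in the fit reported (7.46%, against 4.58% of all probe sets). With array weights it was 6 (8.96%, against 11.8% of all probe sets). With the filter at the median level, which kept 34 members, it was 3 (8.82%, against 4.99% of the probe sets kept). With all probe sets of each gene averaged it was 3 (4.48%, against 4.37% of all averaged features). With an array left out it was 1 to 7 (1.49% to 10.4%, against 2.64% to 9.03% of all probe sets). The groups did not overlap in 2 members, in 1 with the filter at the median level (5.45% of all probe sets), in 4 with median centring (5.49%) and in 3 to 12 with an array left out (7.21% to 15.3%). Vamp5 reversed to 0.0535 with its probe sets averaged, whose signs differ. The median difference of the members lay between -0.0426 and 0.00297. Except for the filters and the changes of array number, the cause was not tested. With 4 and 3 arrays, the number of arrays limits the precision.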
